A study of Mus musculus with 9 samples.

Results

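The genes described here are the axon guidance ligands and receptors of mouse embryonic fibroblasts (MEFs), primary connective tissue cells. They were chosen by name, as the protein-coding genes of the semaphorin classes 3 to 7, plexin, neuropilin, Eph, ephrin, Slit, Robo, Unc5 and netrin families, by a rule that uses no measured value, although earlier results of these data were known when the families were picked. The name patterns take 68 genes of the GENCODE M21 annotation, and 54 of them are among the 16428 genes analysed here, 30 ligands and 24 receptors. The MEFs carry the genotype CARM1f/f ER-Cre, that is, a floxed Carm1 gene and a Cre enzyme that an estrogen receptor ligand switches on. The product of Carm1 methylates arginines of histones and of transcriptional coactivators. Poly(A) RNA of 9 libraries was sequenced in 3 groups of 3. CARM1i cells had 1 uM of the CARM1 inhibitor TP-064 and KO cells 2 uM 4-hydroxytamoxifen (4-OHT), the ligand of that enzyme, each for 6 days, while WT cells had no treatment. All groups share the floxed gene and the Cre enzyme. No group analysed here had 4-OHT without a floxed gene and none is labelled as vehicle, so effects of an agent and of CARM1 cannot be told apart. Nothing in the labels ties the replicates to separate embryos or cultures, so the p-values measure the spread between libraries, which may be technical.

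Axon guidance genes were first described in growing nerves, where they steer the growth cone, and they also guide migration and adhesion of fibroblasts and blood vessel cells. Semaphorins bind plexins. Most secreted class 3 semaphorins need a neuropilin as co-receptor, and the membrane-bound classes bind plexins directly. Ephrins and Eph receptors both sit in the membrane and signal in both directions between touching cells. Slits are secreted and bind Robo receptors, and netrins attract through Dcc-type receptors or repel through Unc5 receptors.

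Total reads recovered per library ran from 28657018 to 35842771. On the third principal component of the log values (9.58% of the variance) CARM1i replicate 3 lay at -19.5 and the other CARM1i replicates lay at 10.97 and 11.71. Calls that were gained or lost without that library are given beside the genes below. Carm1 itself averaged 1057 ± 64 in CARM1i, 758 ± 43 in KO and 1104 ± 34.1 in WT normalized read counts (SD, n = 3). It was lower in KO by limma (log2 fold change -0.54 ± 0.06, adjusted p = 5.493e-07), and counts over the whole gene do not separate the floxed exons. The fibroblast markers were highly expressed in all libraries, with summed values of 353461 to 384102 in CARM1i, 347102 to 365978 in KO and 377619 to 387646 in WT. Of 10 listed, 9 passed the filter on low values and Lum did not, and 2 rose and 7 fell in KO while 2 rose and 4 fell in CARM1i. Over all genes tested 21.4% rose and 20.5% fell in KO, and 10.5% rose and 8.59% fell in CARM1i. Of 9 neuron markers only Tubb3 and Map2 were analysed, and their sum was 212 to 287 in CARM1i, 194 to 222 in KO and 273 to 289.8 in WT. Tubb3 averaged 79 ± 4.67 in CARM1i, 36.1 ± 8.13 in KO and 109 ± 16 in WT and fell in KO (-1.59 ± 0.19, adjusted p = 2.073e-06), while Map2 averaged 168 ± 40.4 in CARM1i, 170.0 ± 7.76 in KO and 173 ± 9.21 in WT and did not pass. The Schwann and glia markers (2 of 6 analysed) summed to 18.2 to 30.5 in CARM1i, 25.9 to 37.3 in KO and 20.3 to 37.2 in WT. Endothelial markers (5 of 8) summed to 243 to 272 in CARM1i, 292 to 353 in KO and 272 to 306 in WT, and mural cell markers (3 of 6) to 1075 to 1370.0 in CARM1i, 1308 to 1438 in KO and 1079 to 1207 in WT. Macrophage markers (3 of 8) summed to 110.3 to 139 in CARM1i, 119 to 196 in KO and 93.9 to 119.8 in WT, and of these Cd68 averaged 50.2 ± 14 in CARM1i, 86 ± 27.9 in KO and 42.5 ± 12.4 in WT and rose in KO (0.98 ± 0.27, adjusted p = 0.007039). The single epithelial marker analysed of 5, Krt18, averaged 39.2 ± 6.03 in CARM1i, 112 ± 17.8 in KO and 38 ± 13 in WT and rose in KO (1.58 ± 0.25, adjusted p = 4.58e-05). All 8 markers of dividing cells fell in both treatments, beside 20.5% of all genes tested in KO and 8.59% in CARM1i. The sum of these markers was 22722 to 24639 in CARM1i, 13583 to 14134 in KO and 33810 to 35066 in WT. The part of these shifts in the values below was not tested, and in bulk RNA fewer cells of a type cannot be told apart from less RNA per cell.

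Compared per kb of exon, the 54 genes spanned more than 3 orders of magnitude. The highest was Slit3, a secreted repellent, at 1306 ± 174 in CARM1i, 1209.7 ± 49.4 in KO and 1324 ± 75.8 in WT normalized counts per kb (SD, n = 3 each). Next came the plexin gene Plxnb2, at 1043 ± 12.1 in CARM1i, 1026 ± 13 in KO and 1019 ± 25 in WT. Ephb4, the receptor of ephrin-B2, had 816 ± 2.89 per kb in WT and Ntn1, which encodes netrin-1, had 684 ± 5.82. The netrin receptor gene Unc5b (624 ± 27.4), the neuropilin gene Nrp2 (594 ± 59.1), Slit2 (592 ± 17.5), Sema3a (520.3 ± 30.5), Sema3c (512 ± 21.6) and Sema7a (489 ± 25.1) followed in WT. Unc5b, Nrp2 and Slit2 lay within their spreads of each other, and so did Sema3a, Sema3c and Sema7a. In KO the order differed, because Sema7a reached 639 ± 48.6 in CARM1i, 1083 ± 66.7 in KO and 489 ± 25.1 in WT, which put it beside Plxnb2. At the low end were Sema4a, Sema4f, Unc5a, Efnb3 and Robo3, whose mean over the 9 libraries was under 10 normalized counts. They were left out of the tests, so 49 genes were tested. The Robo receptor genes as a family were weakly measured beside their Slit ligands, with summed levels per kb of 22.3 ± 1.61 in CARM1i, 23.8 ± 1.79 in KO and 26.6 ± 1.38 in WT for Robos and 1943 ± 190.1 in CARM1i, 1775 ± 69.9 in KO and 1917 ± 93.2 in WT for Slits. Exon length is the union over annotated transcripts, so a gene with long unused exons has its level understated.

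**Figure D1:**
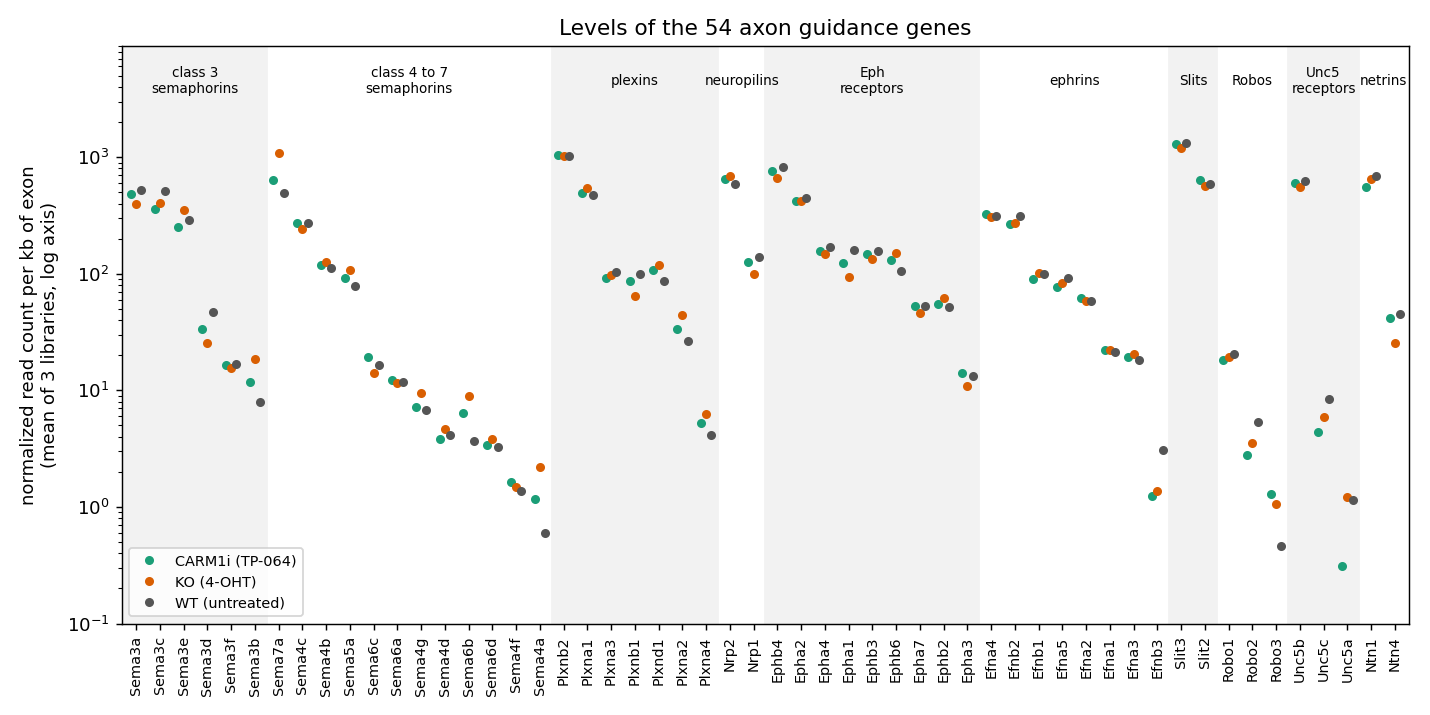
Level of each of the 54 genes, as mean normalized read count per kb of exon over 3 libraries on a log axis, with CARM1i in green, KO in orange and WT in grey. Slit3 and Plxnb2 are highest, and within most families a few genes carry nearly all of the signal; Sema7a in KO (1083 per kb) stands well above Sema7a in WT (489 per kb).

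Summed over each family, the levels per kb differed most for the class 4 to 7 semaphorins. They summed to 1113, 1171 and 1248 in CARM1i, 1664, 1539 and 1645 in KO, and 1023, 967 and 1019.9 in WT. The KO libraries were all above the CARM1i libraries and the CARM1i libraries all above WT, and 58.3% of this sum over all libraries came from Sema7a. The class 3 semaphorins had 1160.1, 1153 and 1169.8 in CARM1i, 1216, 1222 and 1195 in KO, and 1423, 1398 and 1356 in WT. Here WT was highest and did not overlap either treatment. The Eph receptors had 1880.3, 1907 and 1806 in CARM1i, 1771, 1680.3 and 1713 in KO, and 1986, 1981 and 1956 in WT, with KO lowest and CARM1i between KO and WT. Ephb4 made 40.3% of this sum over all libraries. Netrins, of which Ntn1 made 94.4%, had 596, 629 and 570.0 in CARM1i, 696, 656 and 679 in KO, and 725, 723 and 738 in WT, with CARM1i lowest. Over all ligands the mean sum was 5740.0 ± 169 in CARM1i, 6146 ± 167 in KO and 5959 ± 114 in WT, and over all receptors it was 5142 ± 133 in CARM1i, 5002 ± 114 in KO and 5183 ± 103 in WT, and both treatments overlapped WT in both sums. These sums are descriptions and carry no test.

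**Figure D2:**
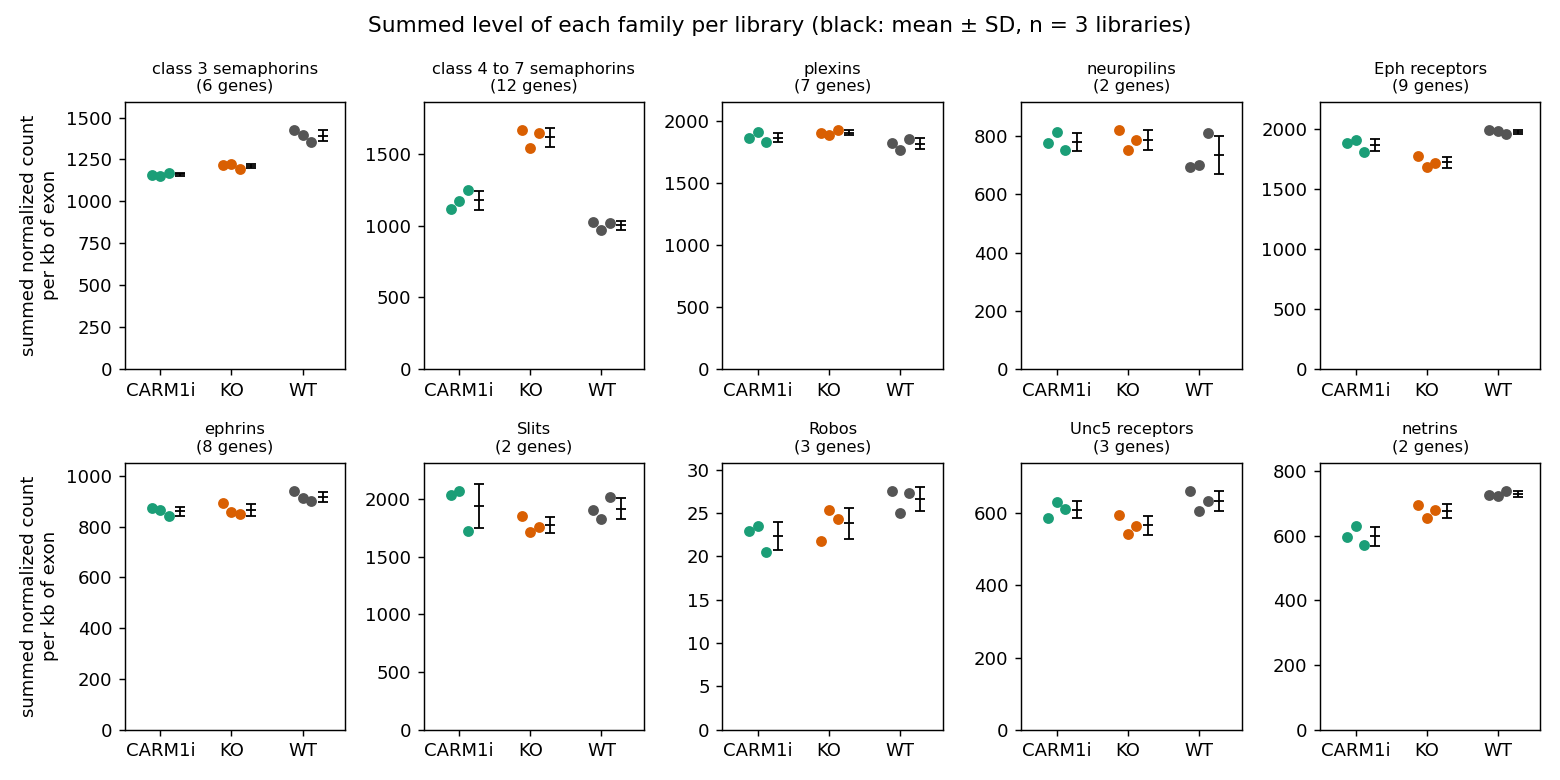
Summed normalized read count per kb of exon for each family and library; dots are the 3 replicates of CARM1i, KO and WT, and black bars give the mean ± SD (n = 3). The class 4 to 7 semaphorins were highest in KO (mean 1616, against 1003 in WT), and the class 3 semaphorins were lower in CARM1i (1161) and KO (1211) than in WT (1392).

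In KO against WT, 13 of the 49 tested genes rose and 15 fell (57.1%) by limma at an adjusted p of 0.05. Over all 14560 genes tested 41.9% passed, 21.4% higher and 20.5% lower, and over the protein-coding genes tested 46.3% passed, 24.0% higher and 22.3% lower. All 3 libraries of KO lay above all of WT for 12 of the tested genes and below for 17, beside 26.7% and 25.9% of all genes tested (52.6% in either direction). The excess of the axon guidance genes over the background was not tested. Most changes were small. The median absolute log2 fold change was 0.21, beside 0.18 over all genes tested, and 3 genes (Sema6b, Sema3b and Sema7a) changed by at least 1 on the log2 scale, all higher. By role, 12 of 27 ligands (6 rose, 6 fell) and 16 of 22 receptors (7 rose, 9 fell) passed. The median log2 fold change was -0.04 for ligands and -0.13 for receptors.

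In CARM1i against WT, 6 of the 49 genes rose and 9 fell (30.6%). The background was 19.1% of all genes tested, 10.5% higher and 8.59% lower, and among protein-coding genes it was 21.4%, 11.9% higher and 9.48% lower. The CARM1i libraries lay above all WT libraries for 5 genes and below for 12, beside 16.7% each way of all genes tested (33.4% together). None reached 1 on the log2 scale by limma, and the median absolute log2 fold change was 0.14, beside 0.11 over all genes tested. Of the 27 ligands 3 rose and 5 fell (29.6%), and of the 22 receptors 3 rose and 4 fell (31.8%). Without WT replicate 2, 3 genes rose in place of 6. The comparisons of KO and of CARM1i share the WT libraries, so their values are set side by side below and CARM1i was also tested against KO directly.

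**Figure D3:**
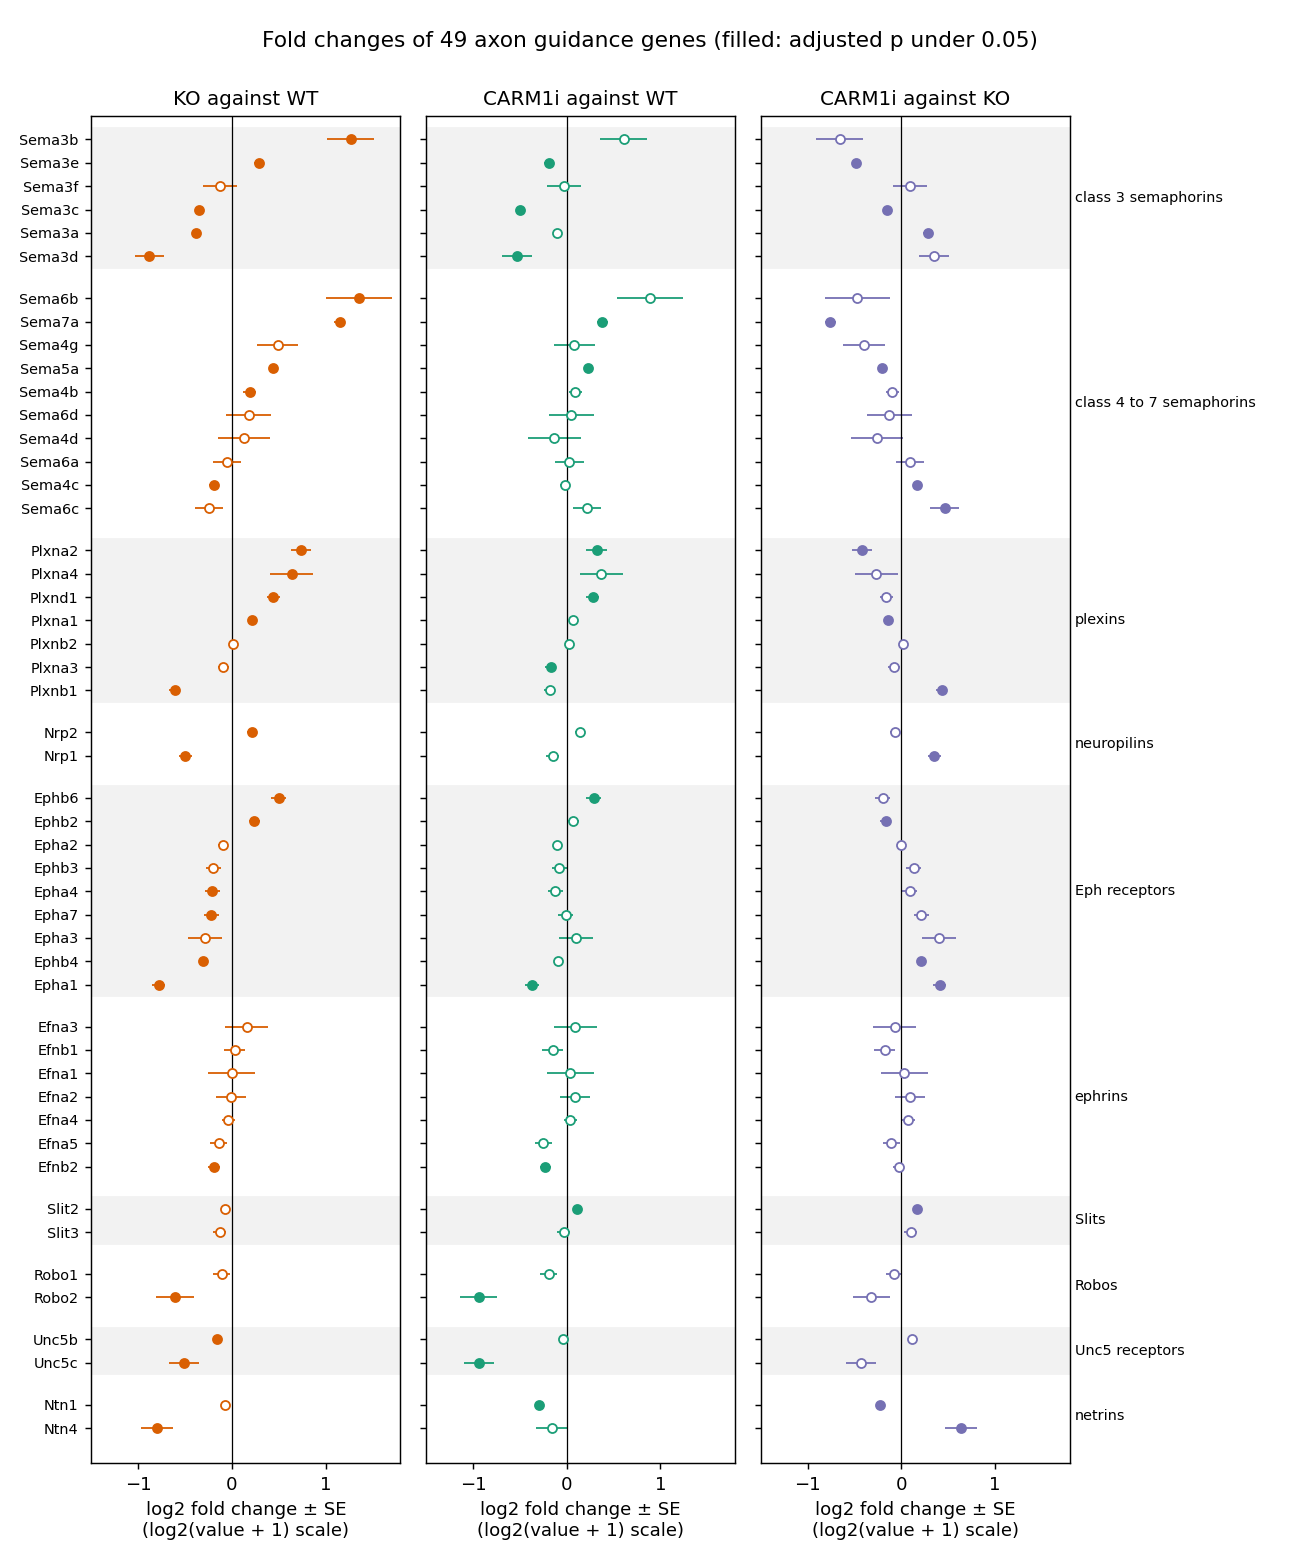
Log2 fold change (± SE, log2(value + 1) scale) of the 49 tested genes by family, for KO against WT, CARM1i against WT and CARM1i against KO; filled points passed an adjusted p of 0.05. In KO 13 genes were higher and 15 lower, in CARM1i against WT 6 were higher and 9 lower, and among the 7 ephrins Efnb2 is the one filled point in each comparison with WT.

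To show the sequence before the start of genes whose RNA moved, the 250 bases upstream were taken from RefSeq promoters (GRCm38.p6). Of the 54 genes, 47 matched by symbol, with 63 windows. The genes shown are those called in the same direction against WT in KO and in CARM1i, the 3 with the smallest adjusted p in KO in each direction. Capitals mark matches, on either strand, to the E-box CANNTG, the short CREB element TGACG or the AP-1 element TGANTCA; a window without capitals holds none of these letters. Sema7a (chr9:57939862-57940111, plus strand), Sema5a (chr15:32244563-32244812, plus strand) and Plxna2 (chr1:194619579-194619828, plus strand) were higher, and Epha1 (chr6:42373269-42373518, minus strand), Sema3c (chr5:17574566-17574815, plus strand) and Sema3d (chr5:12382916-12383165, plus strand) were lower.
Sema7a: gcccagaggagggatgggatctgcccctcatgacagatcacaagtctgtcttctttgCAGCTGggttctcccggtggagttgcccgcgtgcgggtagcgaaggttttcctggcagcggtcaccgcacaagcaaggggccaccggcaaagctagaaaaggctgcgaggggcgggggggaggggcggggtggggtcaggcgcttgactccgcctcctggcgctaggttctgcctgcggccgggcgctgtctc
Sema5a: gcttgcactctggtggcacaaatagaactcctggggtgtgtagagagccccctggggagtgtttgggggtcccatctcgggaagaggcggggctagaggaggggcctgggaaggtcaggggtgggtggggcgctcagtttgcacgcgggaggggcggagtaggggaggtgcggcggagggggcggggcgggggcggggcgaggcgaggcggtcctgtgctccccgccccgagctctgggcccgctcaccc
Plxna2: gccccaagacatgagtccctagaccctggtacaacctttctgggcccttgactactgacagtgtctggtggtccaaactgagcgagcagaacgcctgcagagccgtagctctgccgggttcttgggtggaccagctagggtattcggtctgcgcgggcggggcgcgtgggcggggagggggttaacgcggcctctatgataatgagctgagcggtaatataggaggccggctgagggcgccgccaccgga
Epha1: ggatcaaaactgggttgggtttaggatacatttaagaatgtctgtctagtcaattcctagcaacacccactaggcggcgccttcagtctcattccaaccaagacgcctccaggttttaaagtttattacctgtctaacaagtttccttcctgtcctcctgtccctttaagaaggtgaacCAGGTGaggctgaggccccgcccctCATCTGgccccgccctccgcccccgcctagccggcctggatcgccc
Sema3c: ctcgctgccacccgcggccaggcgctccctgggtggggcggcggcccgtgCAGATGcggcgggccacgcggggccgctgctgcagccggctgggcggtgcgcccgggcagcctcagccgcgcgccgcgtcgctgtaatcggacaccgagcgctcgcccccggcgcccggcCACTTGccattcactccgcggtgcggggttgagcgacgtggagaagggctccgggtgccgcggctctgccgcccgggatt
Sema3d: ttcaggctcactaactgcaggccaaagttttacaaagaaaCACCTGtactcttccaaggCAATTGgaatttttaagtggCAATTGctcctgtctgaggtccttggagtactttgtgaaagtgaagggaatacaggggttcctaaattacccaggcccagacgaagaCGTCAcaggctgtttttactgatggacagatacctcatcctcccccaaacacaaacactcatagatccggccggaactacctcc
The RefSeq start differs from the GENCODE start by 1611 bases for Plxna2, 535 for Sema3c and 219 for Sema3d. The Sema7a window holds 1 E-box, the Epha1 and Sema3c windows 2 each and the Sema3d window 3, and the Sema5a and Plxna2 windows hold none. Among these 6 windows the short CREB element is found in that of Sema3d. The windows differ in composition, from 46.8% G and C with 4 CpG pairs for Sema3d to 78.4% with 39 CpG pairs for Sema3c. Over the 63 windows 28 (44.4%) held an E-box, against 66.2% of all 32851 windows of that length. The short CREB element was in 7 of 63 (11.1%, against 17.8% of all windows), the AP-1 element in 3 (4.76%, against 6.75%) and the palindromic CREB element TGACGTCA, which contains the short one on both strands, in 1, that of Epha2 (1.59%, against 1.55%). The median G and C content was 64.4% in these windows and 52.4% in all windows. A match is a description of letters, not of binding.

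Among the secreted class 3 semaphorins, which signal through neuropilins and plexins, 2 of 6 rose and 3 fell in KO. In CARM1i 3 fell and none rose. Of all genes tested, 41.9% passed in KO and 19.1% in CARM1i. The differences of the class 3 family from the background were not tested. Genes of this family lie near each other on chromosome 5 (mm10), in the order Sema3d (chromosome 5, 12383385 to 12588948), Sema3a (chromosome 5, 13125414 to 13602565), Sema3e (chromosome 5, 14025276 to 14256689) and Sema3c (chromosome 5, 17574281 to 17730268), with gaps of 0.54, 0.42 and 3.32 Mb. Sema3a, the ligand of neuropilin-1 that collapses growth cones, had normalized counts of 6518, 6469 and 7219.9 in CARM1i, 5375, 5611 and 5596 in KO, and 7512, 7403 and 6732 in WT. All KO libraries lay below all others, and CARM1i overlapped WT. In KO it fell (log2 fold change -0.38 ± 0.05, adjusted p = 1.9e-06), while in CARM1i the difference from WT did not pass (-0.10 ± 0.05, adjusted p = 0.1448). Without CARM1i replicate 3 or WT replicate 3 the value in CARM1i was -0.15 and passed (adjusted p = 0.01114 and 0.02497). Sema3c, which binds both neuropilins, had 2728, 2539.8 and 2495 in CARM1i, 2950.0, 2937 and 2751 in KO, and 3539, 3605 and 3833 in WT. The groups did not overlap, with CARM1i lowest. It fell in KO (-0.35 ± 0.04, adjusted p = 4.107e-06) and in CARM1i (-0.50 ± 0.04, adjusted p = 4.02e-07).

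Sema3d measured 312, 345 and 201 in CARM1i, 267, 212 and 184 in KO, and 411, 397 and 403 in WT. CARM1i replicate 3 lay beside the KO libraries, and all WT libraries lay above both treatments. The gene fell in KO (-0.88 ± 0.16, adjusted p = 0.0001899). It also passed in CARM1i (-0.53 ± 0.16, adjusted p = 0.02435), but this call ended without CARM1i replicate 3, where the log2 fold change was -0.30, and without WT replicate 1, 2 or 3 (-0.52, -0.55 and -0.53). The CARM1i call also ended with DESeq2 (-0.50, adjusted p = 0.1) and by limma without the variance trend (-0.53, adjusted p = 0.1502). Sema3e, which unlike its relatives binds plexin-D1 without a neuropilin, went the other way in KO. Its counts were 2297, 2385 and 2316 in CARM1i, 3271, 3213 and 3252 in KO, and 2931, 2689.6 and 2395 in WT. KO was above and CARM1i below all WT libraries. It rose in KO (0.29 ± 0.05, adjusted p = 0.0002677) and fell in CARM1i (-0.19 ± 0.05, adjusted p = 0.0163), and it was the only one of the 49 genes called in opposite directions by limma. The fall in CARM1i did not pass without CARM1i replicate 1 (-0.18), WT replicate 1 (-0.12) or WT replicate 2 (-0.18). By limma without the variance trend it did not pass either (-0.19, adjusted p = 0.118). The difference of CARM1i from KO passed in all 20 alternatives tried (-0.48 ± 0.05, adjusted p = 3.074e-06). Sema3b, a weakly measured member on chromosome 9, averaged 56.1 ± 9.18 in CARM1i, 88.5 ± 4.5 in KO and 38.3 ± 14.7 in WT. It rose in KO (1.27 ± 0.25, adjusted p = 0.0005293) and its difference in CARM1i did not pass (0.61 ± 0.25, adjusted p = 0.1073) unless WT replicate 3 was left out (0.83). Its neighbour Sema3f passed in neither, with 95% intervals of -0.51 to 0.26 in KO and -0.42 to 0.36 in CARM1i.

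Among the membrane-linked semaphorins, Sema7a and Sema5a were the genes called higher in both treatments. Of the 10 tested genes of classes 4 to 7, 4 rose and 1 fell in KO, and 2 rose and none fell in CARM1i. Beside this, 41.9% of all genes tested passed in KO and 19.1% in CARM1i. The differences of these classes from the background were not tested. Sema7a (ENSMUSG00000038264.8; chromosome 9, 57940112 to 57962865) encodes a lipid-anchored semaphorin that binds plexin-C1 and integrins. Its counts were 1976, 2059 and 2286 in CARM1i, 3711, 3319.6 and 3689.7 in KO, and 1688, 1525 and 1629.5 in WT. The 3 groups did not overlap, with KO highest and CARM1i between KO and WT. It was 2.21-fold higher in KO (1.15 ± 0.06, adjusted p = 1.894e-11), 1.3-fold higher in CARM1i (0.38 ± 0.06, adjusted p = 8.553e-05), and lower in CARM1i than in KO (-0.76 ± 0.06, adjusted p = 2.079e-08). Sema5a, a transmembrane semaphorin with thrombospondin repeats, had 1740.3, 1676 and 1788 in CARM1i, 2016, 2025 and 1994 in KO, and 1440.2, 1498 and 1502 in WT. The groups again did not overlap and had the same order. It rose in KO (0.44 ± 0.04, adjusted p = 7.453e-08) and in CARM1i (0.23 ± 0.04, adjusted p = 0.000542), and each of these calls of Sema7a and Sema5a passed in all 20 alternatives.

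The weakly measured Sema6b, a ligand of class A plexins, had 23.3, 24.8 and 27.8 in CARM1i, 40.0, 33.3 and 33.4 in KO, and 13.8, 6.85 and 23.5 in WT. All KO libraries were above all WT libraries, among which replicate 2 was lowest. It rose in KO (1.36 ± 0.35, adjusted p = 0.003852), and in CARM1i the difference did not pass (0.89 ± 0.35, adjusted p = 0.08472) unless WT replicate 3 was left out (1.28, adjusted p = 0.01185). Sema4c, a ligand of plexin-B2, fell slightly in KO (-0.19 ± 0.05, adjusted p = 0.004975), with 1183, 1297 and 1263 in CARM1i, 1132, 1129 and 1075 in KO, and 1268, 1227 and 1299 in WT. CARM1i overlapped WT for this gene, and 7.3% of its exon bases are shared with an opposite-strand transcript, D430040D24Rik. Sema4b rose in KO by limma (0.19 ± 0.07, adjusted p = 0.03759), a call that ended without KO replicate 1 (0.16), KO replicate 3 (0.17), WT replicate 1 (0.18), WT replicate 2 (0.20) or WT replicate 3 (0.20). Sema4d, Sema4g, Sema6a, Sema6c and Sema6d passed in neither comparison with WT, and their log2 fold changes ran from -0.24 ± 0.15 (Sema6c) to 0.49 ± 0.22 (Sema4g) in KO. Sema4g passed in KO without KO replicate 3 (0.67) or WT replicate 2 (0.65).

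Plexins are the receptors that semaphorins act on. Of 7 tested in KO, 4 rose (Plxna1, Plxna2, Plxna4 and Plxnd1) and 1 fell (Plxnb1), and in CARM1i 2 rose and 1 fell. These shares were 71.4% in KO and 42.9% in CARM1i, beside 41.9% and 19.1% of all genes tested. The excess was not tested. Plxna2, a signalling partner of neuropilins and a receptor of class 6 semaphorins, had 511, 525 and 681 in CARM1i, 668, 827 and 795 in KO, and 514, 447 and 407 in WT. KO lay above WT in every library, and CARM1i replicate 3 lay among the KO libraries. Plxna2 rose in KO (0.74 ± 0.11, adjusted p = 2.045e-05). In CARM1i it passed by limma (0.32 ± 0.11, adjusted p = 0.04502), with 0.19 and no call without CARM1i replicate 3; the call also ended without KO replicate 2 (0.32), KO replicate 3 (0.32), WT replicate 2 (0.31) or WT replicate 3 (0.24), and with edgeR (0.32). Plxnd1, the receptor of Sema3e, had 704, 779.6 and 851 in CARM1i, 872, 844 and 879 in KO, and 665, 574 and 679 in WT. Neither treatment overlapped WT. Plxnd1 rose in KO (0.44 ± 0.07, adjusted p = 9.8e-05) and in CARM1i (0.28 ± 0.07, adjusted p = 0.01115), and the CARM1i call ended without WT replicate 2 (0.21). That call also ended by limma without the variance trend (0.28, adjusted p = 0.07501).

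Plxna1 was measured at 4562, 4763 and 4179.5 in CARM1i, 4968, 4875 and 5007 in KO, and 4332, 4201 and 4335 in WT. KO was above both other groups, which overlapped. Plxna1 rose in KO (0.21 ± 0.04, adjusted p = 0.0004711) and did not pass in CARM1i (0.07 ± 0.04, adjusted p = 0.2807), where it did pass without CARM1i replicate 3 (0.12, adjusted p = 0.0187). The opposite-strand transcript Gm26811 shares 10.7% of its exon bases. Plxna4, at 88.7 ± 16.3 in KO and 58 ± 17.1 in WT, rose (0.64 ± 0.23, adjusted p = 0.03075), but not without KO replicate 2 (0.50), KO replicate 3 (0.64) or WT replicate 2 (0.38). Plxnb1, the receptor of Sema4d, had 773, 899.7 and 839 in CARM1i, 617, 638 and 603 in KO, and 954, 889 and 1005 in WT. Each KO library was below every other library. It fell in KO (-0.61 ± 0.06, adjusted p = 4.174e-07) and missed the threshold in CARM1i (-0.18 ± 0.06, adjusted p = 0.05708), where it passed without CARM1i replicate 2 (-0.23) or WT replicate 2 (-0.23). Its relative Plxnb2, the highest plexin per kb, had 8045, 8149 and 7964 in CARM1i, 7982, 7801 and 7968 in KO, and 7851, 7683 and 8068 in WT. All groups overlapped, and the 95% interval of the log2 fold change was -0.05 to 0.07 in KO and -0.03 to 0.10 in CARM1i. Plxna3 fell in CARM1i at an adjusted p of 0.0482, and 5 of 20 alternatives kept this call, which ended without any 1 library other than CARM1i replicate 1 (-0.14 without CARM1i replicate 3).

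The neuropilin genes, co-receptors of class 3 semaphorins and of VEGF, were called in opposite directions in KO. Nrp1 had 1253, 1360.0 and 1115 in CARM1i, 1056, 919 and 944 in KO, and 1351, 1323 and 1447 in WT. KO was below all other libraries. It fell in KO (-0.50 ± 0.07, adjusted p = 1.012e-05) and did not pass in CARM1i (-0.15 ± 0.07, adjusted p = 0.1475); without CARM1i replicate 2 it passed there (-0.22). Nrp2, about 5 times as high per kb, had 7679, 7978 and 7545 in CARM1i, 8432, 7793 and 8163 in KO, and 6577, 6689.9 and 7842 in WT. WT replicate 3 lay among the treated libraries, so the groups overlapped. Nrp2 rose in KO (0.21 ± 0.05, adjusted p = 0.002778; adjusted p = 0.05083 without the variance trend), and missed the threshold in CARM1i (0.14 ± 0.05, adjusted p = 0.0669), where it passed without WT replicate 3 (0.22) or CARM1i replicate 3 (0.16).

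Eph receptors are receptor tyrosine kinases that bind ephrins on neighbouring cells. Of the 9 tested, 2 rose and 4 fell in KO, and 1 rose and 1 fell in CARM1i. These shares were 66.7% in KO and 22.2% in CARM1i, beside 41.9% and 19.1% of all genes tested. The differences from the background were not tested. Epha1 (ENSMUSG00000029859.6; chromosome 6, 42358487 to 42373268) had 501, 467 and 491 in CARM1i, 338, 388 and 371 in KO, and 595, 674 and 614 in WT. The groups did not overlap, with KO lowest and CARM1i between KO and WT. It fell in KO (-0.78 ± 0.07, adjusted p = 1.269e-07), fell in CARM1i (-0.37 ± 0.07, adjusted p = 0.001772) and was higher in CARM1i than in KO (0.41 ± 0.07, adjusted p = 0.0004878). On the opposite strand the gene Zyx shares 236 bases, 6.0% of the exon bases of Epha1. Zyx averaged 16907 ± 730 in CARM1i, 14255 ± 329 in KO and 17056 ± 755 in WT, with a log2 fold change of -0.26 ± 0.04 in KO (adjusted p = 2.055e-05) and -0.01 ± 0.04 in CARM1i (adjusted p = 0.8644). The strand setting of the counting is not given in the sources used here. Ephb6, a receptor without kinase activity whose gene lies 0.74 Mb away from Epha1, went the other way, with 536, 495 and 449.9 in CARM1i, 605, 583 and 518 in KO, and 379, 415 and 411 in WT. Both treatments lay above WT. Ephb6 rose in KO (0.50 ± 0.08, adjusted p = 6.523e-05) and in CARM1i (0.29 ± 0.08, adjusted p = 0.01525), though in CARM1i not without CARM1i replicate 1 (0.23) or WT replicate 1 (0.25). The CARM1i call also ended by limma without the variance trend (0.29, adjusted p = 0.06133).

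Ephb4 was the highest Eph receptor gene per kb, with 3424, 3628 and 3589.6 in CARM1i, 3151, 3011 and 3014 in KO, and 3795, 3788 and 3769 in WT. KO was lowest and CARM1i lay between KO and WT without overlap. In KO it fell (-0.31 ± 0.03, adjusted p = 1.188e-06), while the CARM1i value missed the threshold (-0.09 ± 0.03, adjusted p = 0.07204) and passed with libraries rescaled to a common total (-0.11) or quantile normalized (-0.13). Ephb2 had 717, 672 and 698 in CARM1i, 759.7, 778 and 808 in KO, and 648, 649.9 and 685 in WT. KO was above both other groups, which overlapped. Ephb2 rose in KO (0.24 ± 0.06, adjusted p = 0.001976) and did not pass in CARM1i (0.07 ± 0.06, adjusted p = 0.4167). Epha4 and Epha7 fell in KO at adjusted p-values of 0.04239 and 0.0405, close to the threshold. Epha4 (-0.21 ± 0.08) lost its call without KO replicate 2 (-0.17), KO replicate 3 (-0.23), WT replicate 1 (-0.20), WT replicate 2 (-0.24) or WT replicate 3 (-0.20), and Epha7 (-0.22 ± 0.08) lost it without KO replicate 1 (-0.21), KO replicate 3 (-0.20), WT replicate 1 (-0.24), WT replicate 2 (-0.23) or WT replicate 3 (-0.20). Epha2, second of the family per kb, did not pass in KO (-0.10 ± 0.05, adjusted p = 0.165) or CARM1i (-0.10 ± 0.05, adjusted p = 0.2316), and passed in both without WT replicate 3 (-0.16 in KO, -0.17 in CARM1i). Ephb3 missed the threshold in KO (-0.20 ± 0.08, adjusted p = 0.0512), and passed without CARM1i replicate 1 (-0.20), CARM1i replicate 3 (-0.20) or WT replicate 1 (-0.25), with edgeR (-0.20) and with DESeq2 (-0.21). Epha3 passed in neither.

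Of the 7 ephrin ligand genes tested, 1 fell and none rose in each comparison with WT (14.3%, beside 41.9% of all genes tested in KO and 19.1% in CARM1i). Their median absolute log2 fold change was 0.04 in KO and 0.09 in CARM1i, beside 0.18 and 0.11 over all genes tested, and the difference from other genes was not tested. The gene that fell was Efnb2, the transmembrane ligand of Ephb4, with 1934, 1825 and 1699 in CARM1i, 2040.2, 1848 and 1709 in KO, and 2229, 2085 and 2079 in WT. Every treated library lay below every WT library. It fell in KO (-0.19 ± 0.06, adjusted p = 0.01276) and in CARM1i (-0.23 ± 0.06, adjusted p = 0.01017), and the calls ended without KO replicate 3 (-0.13, in KO) or WT replicate 1 (-0.16 in KO, -0.20 in CARM1i). Neither fall passed by limma without the variance trend (adjusted p = 0.08155 in KO and 0.0956 in CARM1i). Efna4, a lipid-anchored ligand and the highest ephrin per kb, had 510.2, 524 and 515 in CARM1i, 547, 459 and 470.3 in KO, and 526, 497 and 485 in WT. The groups overlapped, with a 95% interval of -0.19 to 0.12 in KO and -0.12 to 0.19 in CARM1i. Efna5 measured 323, 320.2 and 287 in CARM1i, 311, 329.6 and 368 in KO, and 344, 378 and 389 in WT. CARM1i lay below WT and its difference missed the threshold (-0.25 ± 0.09, adjusted p = 0.05425); it passed without WT replicate 1 (-0.31). Efnb1 had 333, 328 and 265 in CARM1i, 314, 367 and 365 in KO, and 321, 388 and 319.7 in WT, with overlap of all groups (0.03 ± 0.11 in KO, -0.15 ± 0.11 in CARM1i). Efna3, of the cluster of ephrin-A genes on chromosome 3, had 39.5, 47.7 and 55.6 in CARM1i, 45.4, 63.5 and 42 in KO, and 51.7, 35.2 and 47 in WT, again with overlap (0.16 ± 0.23 in KO, 0.09 ± 0.23 in CARM1i). Opposite-strand transcripts share 14.1% of the exon bases of Efna3 and 10.5% of those of Efna4.

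**Figure D4:**
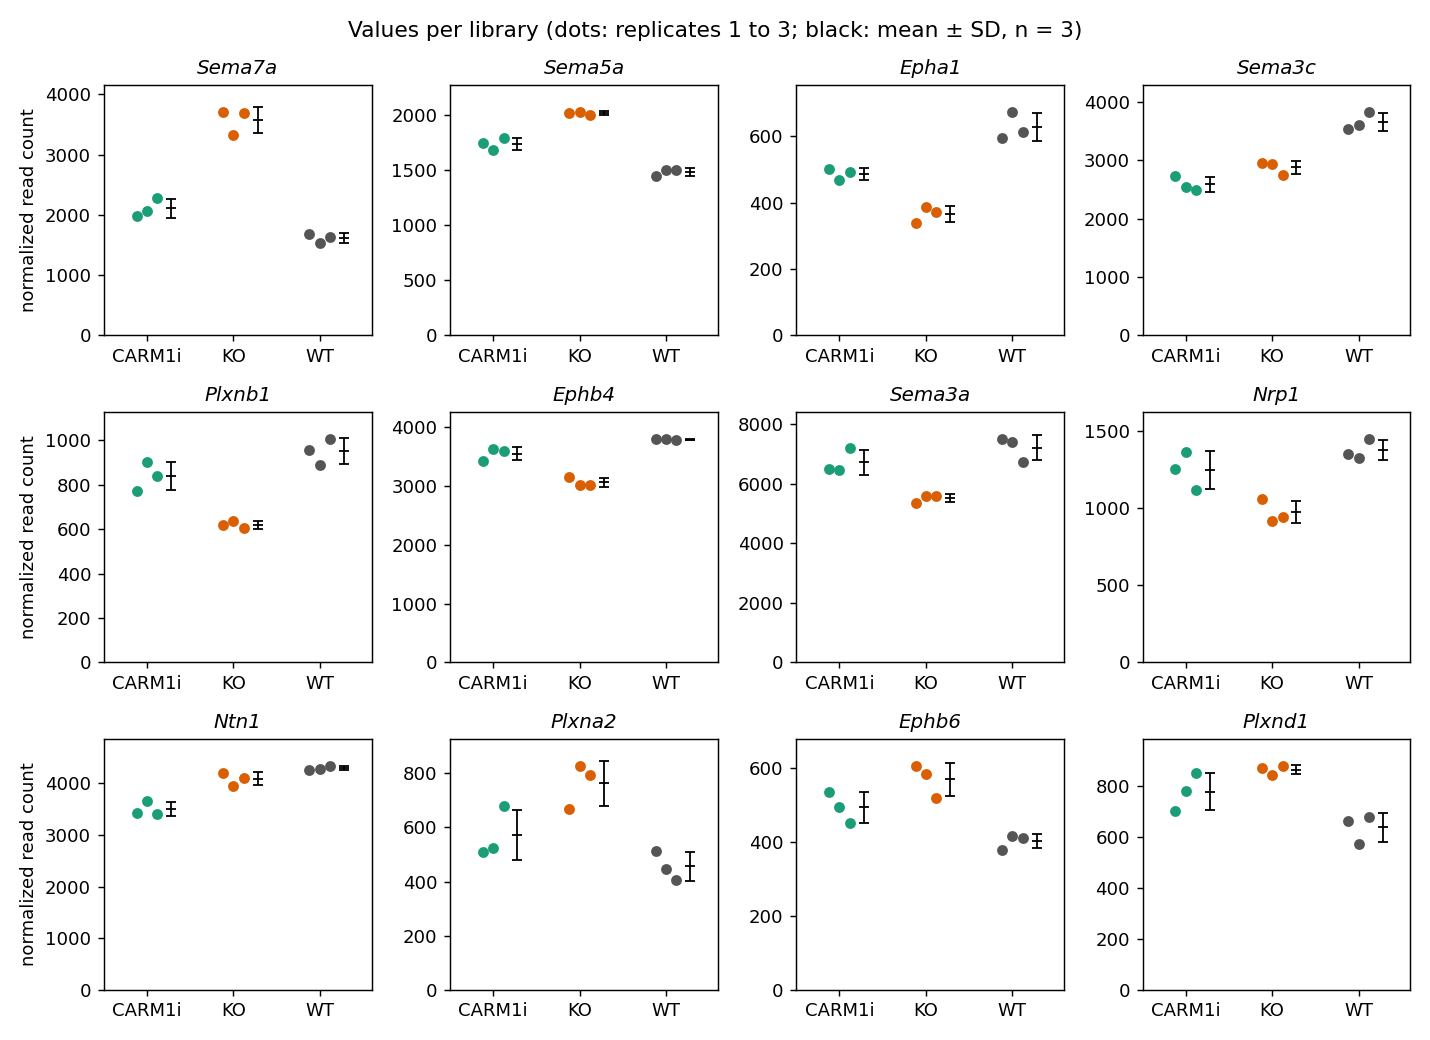
Normalized read count in each library for the 12 genes with the smallest adjusted p against WT; dots are replicates 1 to 3 of CARM1i, KO and WT, and black bars give the mean ± SD (n = 3). Sema7a reached 3319.6 to 3711 in KO, against 1525 to 1688 in WT, and Ntn1 was lower in CARM1i (3404 to 3651) than in WT (4265 to 4335).

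Per kb, the Slit genes lay far above those of their Robo receptors. Slit2, a secreted repellent, had 16435, 16464 and 15744 in CARM1i, 15015, 14019 and 14067 in KO, and 15071, 14623 and 15510.4 in WT. CARM1i lay above both other groups, which overlapped. It was slightly higher in CARM1i (0.11 ± 0.03, adjusted p = 0.03773), and the call ended without CARM1i replicate 1 (0.10), CARM1i replicate 2 (0.09), KO replicate 3 (0.11), WT replicate 1 (0.11) or WT replicate 2 (0.08). The CARM1i call also ended by limma with libraries rescaled to a common total (0.09, adjusted p = 0.06445) or quantile normalized (0.10, adjusted p = 0.0651). In KO Slit2 did not pass (-0.07 ± 0.03, adjusted p = 0.1172). There it passed without KO replicate 1 (-0.10), and with libraries rescaled to a common total (-0.09) or quantile normalized (-0.10). Slit3 had 8440.1, 8620.1 and 6707 in CARM1i, 7644, 7045 and 7329 in KO, and 7980.3, 7606 and 8521 in WT. CARM1i replicate 3 was below every other library, and the groups overlapped. Slit3 passed in neither treatment, with 95% intervals of -0.27 to 0.01 in KO and -0.17 to 0.12 in CARM1i; without CARM1i replicate 3 it passed in KO (-0.13, adjusted p = 0.006507). Of the receptors, Robo2 had 56.7, 47.7 and 38.5 in CARM1i, 49.7, 73.6 and 56.3 in KO, and 85.3, 84.2 and 105 in WT. Both treatments lay below WT. It fell in CARM1i (-0.94 ± 0.20, adjusted p = 0.002789) and in KO (-0.61 ± 0.20, adjusted p = 0.01999), though in KO not without KO replicate 1 (-0.49), KO replicate 3 (-0.58) or WT replicate 3 (-0.51). Its neighbour Robo1, 0.85 Mb away on chromosome 16, had 306, 321 and 275 in CARM1i, 301, 322 and 328 in KO, and 363, 324 and 341 in WT. CARM1i lay just below WT, KO overlapped both, and it passed in neither (-0.11 ± 0.09, adjusted p = 0.3308 in KO, -0.19 ± 0.09, adjusted p = 0.1454 in CARM1i).

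Both netrin genes differed between CARM1i and KO, in opposite directions. Ntn1 (ENSMUSG00000020902.12; chromosome 11, 68209364 to 68400823) had 3431, 3651 and 3404 in CARM1i, 4205, 3951 and 4108 in KO, and 4265, 4280.1 and 4335 in WT. The 3 groups did not overlap, and CARM1i was lowest. It fell in CARM1i (-0.30 ± 0.04, adjusted p = 1.323e-05) and did not pass in KO (-0.07 ± 0.04, adjusted p = 0.1278), where it passed with quantile normalization (-0.11), and the difference of CARM1i from KO passed (-0.23 ± 0.04, adjusted p = 0.0001594). Ntn4, a laminin-binding netrin of basement membranes, showed another order, with 185, 177 and 104 in CARM1i, 98.3, 97.8 and 92.5 in KO, and 171, 156 and 179 in WT. The KO libraries and CARM1i replicate 3 were low, and the other CARM1i libraries lay within or above the WT values. It fell in KO (-0.80 ± 0.17, adjusted p = 0.001166) and did not pass in CARM1i (-0.16 ± 0.17, adjusted p = 0.5886). CARM1i was above KO (0.64 ± 0.17, adjusted p = 0.01216), a call that ended without CARM1i replicate 1 (0.49) or CARM1i replicate 2 (0.52). Unc5c (ENSMUSG00000059921.15; chromosome 3, 141465216 to 141834924), a netrin receptor of repulsion, had 76.9, 71.5 and 105 in CARM1i, 112, 99.8 and 127 in KO, and 142, 164 and 179 in WT. Both treatments lay below WT and CARM1i replicate 3 was within the KO values. Unc5c fell in CARM1i (-0.94 ± 0.16, adjusted p = 0.0003774) and in KO (-0.51 ± 0.16, adjusted p = 0.01558), though in KO not without KO replicate 2 (-0.43) or WT replicate 3 (-0.44). CARM1i and KO differed for Unc5c by -0.43 ± 0.16, which missed the threshold (adjusted p = 0.06282) and passed without CARM1i replicate 3 (-0.59). Unc5b, by far the higher receptor, had 3641, 3928 and 3789 in CARM1i, 3672, 3354 and 3477 in KO, and 4075, 3732 and 3903 in WT. KO was below WT in every library. It fell slightly in KO (-0.16 ± 0.04, adjusted p = 0.006118) and not in CARM1i (-0.04 ± 0.04, adjusted p = 0.5398).

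The direct comparison of CARM1i with KO sets cells given TP-064 beside cells given 4-OHT. Of the 49 genes, 9 were higher and 8 lower in CARM1i (34.7%), beside 23.6% of all genes tested, 12.1% higher and 11.5% lower, and 26.6% of the protein-coding genes, 13.6% higher and 13.0% lower. The CARM1i libraries lay above all KO libraries for 9 genes and below for 9, beside 18.3% and 18.6% of all genes tested (36.9% together). Without KO replicate 2, 5 were lower. Without CARM1i replicate 3, 15 were higher. The 6 gained were Slit3 (0.22, adjusted p = 0.000374, against 0.10 with all libraries), Sema3d (0.59, adjusted p = 0.000844, against 0.35), Epha7 (0.32, adjusted p = 0.002769, against 0.21), Epha4 (0.22, adjusted p = 0.004486, against 0.09), Ephb3 (0.23, adjusted p = 0.01821, against 0.13) and Epha3 (0.55, adjusted p = 0.03122, against 0.40). Plxnd1 was then lower (-0.22, adjusted p = 0.02961, against -0.16). The genes higher in CARM1i were Sema3a (0.28 ± 0.05, adjusted p = 0.0001539), Plxnb1 (0.43 ± 0.06, adjusted p = 7.423e-05), Ephb4 (0.21 ± 0.03, adjusted p = 0.0001919), Nrp1 (0.35 ± 0.07, adjusted p = 0.000933), Slit2 (0.17 ± 0.03, adjusted p = 0.001), Epha1 and Ntn4 given above, Sema4c (0.17 ± 0.05, adjusted p = 0.01945) and Sema6c (0.46 ± 0.15, adjusted p = 0.03483). The last 2 lost their calls without CARM1i replicate 2 (0.14 for Sema4c, 0.40 for Sema6c), and Sema4c also without KO replicate 3 (0.14) and Sema6c also without CARM1i replicate 1 (0.41), KO replicate 1 (0.40) or KO replicate 2 (0.44). Lower in CARM1i were Sema7a, Sema3e and Ntn1, given above, Sema5a (-0.21 ± 0.04, adjusted p = 0.0007485), Plxna2 (-0.42 ± 0.11, adjusted p = 0.007855), Sema3c (-0.15 ± 0.04, adjusted p = 0.01517), Plxna1 (-0.14 ± 0.04, adjusted p = 0.01878) and Ephb2 (-0.17 ± 0.06, adjusted p = 0.03736). Plxna2 lost its call without KO replicate 2 (-0.36), Sema3c without CARM1i replicate 2 (-0.14), KO replicate 1 (-0.14) or KO replicate 2 (-0.14), and Plxna1 without CARM1i replicate 3 (-0.09), KO replicate 1 (-0.14) or KO replicate 3 (-0.13). Ephb2 lost its call without CARM1i replicate 2 (-0.14), CARM1i replicate 3 (-0.17), KO replicate 2 (-0.17) or KO replicate 3 (-0.15), and with DESeq2 (-0.17).

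The 5 genes under the filter were measured at a few reads. Robo3 had 7.09, 8.58 and 10.7 in CARM1i, 4.32, 10.1 and 7.63 in KO, and 3.45, 2.94 and 3.21 in WT, and all treated libraries lay above all WT libraries. Sema4a had 5.06, 8.58 and 5.34 in CARM1i, 5.4, 18.1 and 12.4 in KO, and 2.58, 3.92 and 3.21 in WT, with the same order. Efnb3 had 1.01, 6.67 and 4.27 in CARM1i, 4.32, 1.01 and 7.63 in KO, and 14.6, 11.7 and 3.21 in WT and Unc5a 2.02, 1.91 and 0 in CARM1i, 6.48, 2.02 and 6.68 in KO, and 10.3, 2.94 and 1.07 in WT, with overlap of groups. Sema4f stood between 4.89 and 9.62 in all libraries.

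Co-receptors and intracellular effectors that act with these families were described from a list of 72 genes, of which 66 were analysed and 63 tested. In KO 16 rose and 19 fell (55.6%, beside 41.9% of all genes), and in CARM1i 11 rose and 7 fell (28.6%, beside 19.1%), with median log2 fold changes of -0.02 and 0.00. Limk2, a kinase of the actin-severing protein cofilin, averaged 3607 ± 107 in CARM1i, 4065 ± 128 in KO and 3002 ± 67.2 in WT. It rose in KO (0.44 ± 0.04, adjusted p = 2.32e-08) and in CARM1i (0.26 ± 0.04, adjusted p = 4.786e-05). Mmp14, a membrane metalloproteinase, averaged 12636 ± 287 in CARM1i, 14334 ± 36.9 in KO and 10907 ± 267 in WT and rose likewise (KO 0.39 ± 0.03, adjusted p = 5.439e-09; CARM1i 0.21 ± 0.03, adjusted p = 5.234e-05). Dpysl3, a collapsin response mediator protein gene, averaged 26988 ± 808 in CARM1i, 24446 ± 446 in KO and 31439 ± 1553 in WT and fell in KO (-0.36 ± 0.04, adjusted p = 2.078e-07) and in CARM1i (-0.22 ± 0.04, adjusted p = 0.000249). Flrt2, a ligand of Unc5 receptors, averaged 4314 ± 98.6 in CARM1i, 4944 ± 120.3 in KO and 5788 ± 291 in WT. It fell more in CARM1i (-0.42 ± 0.04, adjusted p = 5.776e-07) than in KO (-0.23 ± 0.04, adjusted p = 9.651e-05), and that difference passed (-0.20 ± 0.04, adjusted p = 0.0009023). Grb10, an adaptor of receptor tyrosine kinases, averaged 15136 ± 650.4 in CARM1i, 12516 ± 361 in KO and 16391 ± 301 in WT and fell in KO (-0.39 ± 0.03, adjusted p = 4.661e-08) and in CARM1i (-0.12 ± 0.03, adjusted p = 0.02418). The effector calls are those of the main test and were not followed through the alternatives.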

How the data were processed

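The mRNA kit keeps strand, per the labels' protocols. Alignment and counting tools, per the submitters' processing notes, include HTSeq 0.6.0 and TopHat2 2.0.10, and the notes list DESeq 1.18.0 and mm10. The authors deposited a normalized signal per gene and library, read counts divided by a size factor. All values (100%, within 1e-06 of a read) were whole multiples of 1 step per library, so whole reads were recovered. Gene IDs were matched without version to GENCODE M21 (same build), 16413 of 16428.

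The main test was limma's (version 3.58.1, R 4.3.3), with its variance trend, on log2(value + 1), a scale that understates changes of low genes. Genes with a mean of at least 10 over the 9 libraries were kept, 14560. One model held 3 groups, and Benjamini-Hochberg adjustment ran over all genes, with a threshold of 0.05. The alternatives were other filters, normalizations, pseudocounts, thresholds and samples, the replicate block, each library left out, and edgeR 4.0.16 and DESeq2 1.42.0 on recovered reads. The fit was tested on simulated data. Genes with all 9 values printed are, per family, the 4 with the smallest adjusted p against WT in either comparison plus the highest per kb; of the effectors, the 6 with the smallest, of which 1 is not reported here. The other members are named by fold change or range. The values of the members under the filter, and the overlapping transcripts and marker genes named, fall outside this rule and were chosen after their values were seen. Members and lists were chosen with earlier results of these data known. Chi-square per gene between replicates was 2.47 to 8.46, so none was a copy.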

Additional observations from a re-analysis of the deposited data

How the results depend on the processing

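The counts of called axon guidance genes were recomputed under 21 alternatives, and none of their called fold changes changed sign in any of them. In KO against WT, with 13 higher and 15 lower, no alternative moved either count by more than 1.5 times; leaving out 1 library gave 12 to 13 higher and 11 to 17 lower. In CARM1i against WT, with 6 higher and 9 lower, the fit without the variance trend gave 2 and 5, an adjusted p under 0.01 also gave 2 and 5, and leaving out 1 library gave 3 (without WT replicate 2) to 8 (without WT replicate 3) higher and 6 to 10 lower. In CARM1i against KO, with 9 higher and 8 lower, no trend and an adjusted p under 0.01 each gave 5 lower, and leaving out 1 library gave 6 to 15 higher and 5 to 9 lower. Without the variance trend, calls against WT ended in CARM1i for Plxna2, Plxnd1, Ephb6, Slit2, Efnb2, Plxna3, Sema3d and Sema3e. In KO they ended for Efnb2, Nrp2, Epha4, Epha7, Plxna4 and Sema4b. Those between CARM1i and KO ended for Ntn4, Plxna2, Sema3c and Plxna1. The cause of these shifts was not tested. Over all single values, 2880 of 3071 kept their side of the threshold, 133 lost a call and 58 gained one, and the lost and gained calls kept their direction.

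Libraries with the same replicate number did not deviate together (correlations of deviations from the group means -0.087 to 0.027), so the numbers were taken as names. With the replicate number as a block the counts were 14 higher and 14 lower in KO against WT, 4 and 8 in CARM1i against WT, and 8 and 8 in CARM1i against KO. The widest standard error in KO against WT was that of Sema6b, 0.35 on the log2 scale. Another scaling moved the median of all genes by at most 0.017 on the log2 scale.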
